A study of Homo sapiens with 12 samples.

Results

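The genes described here are 10 genes of platelets and their precursor cell, the megakaryocyte: PLEK, CD226, ABCC4, FERMT3, TLN1, SRGN, ITGA2B, ITGB3, GP1BA and PF4. They were taken by symbol from a deposited mRNA table of 83027 transcripts of 19659 genes, and all 10 were found, with 29 transcripts in all. They were chosen by their FPKM values in these same DMAG and control libraries, some because they were well measured and some because they were near 0. The differences between the groups are therefore given for them as a description, with no test. A standard error beside one comes from the fit over all genes. That fit draws the spread between libraries of each gene toward that of genes at a similar level. The cells carried the label HEL, a human erythroleukaemia line, so all libraries stand for 1 cell line. It was grown in medium with serum. The 3 DMAG libraries came from cells given 40 µg/ml of DMAG (a glucoside of 3,8-di-O-methylellagic acid from the plant Sanguisorba officinalis) for 3 days. The 3 control libraries are known as controls by their titles alone, and no vehicle or culture time of their own is given for them. RNA was depleted of ribosomal RNA before sequencing, and the study's title concerns inhibited proliferation and megakaryocytic differentiation. Levels are FPKM (mapped fragments scaled to the length of the transcript and to sequencing depth), summed over the transcripts of a gene, and are given as mean ± SD over 3 libraries per group unless single libraries are listed.

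Platelets stop bleeding by sticking to injured vessels, changing shape, releasing granules and binding fibrinogen. The receptor that binds fibrinogen is an integrin made of ITGA2B and ITGB3, and it binds only after talin (TLN1) and kindlin-3 (FERMT3) attach to its cytoplasmic tail. GP1BA is the part of the glycoprotein Ib complex that grips von Willebrand factor, PF4 is a chemokine stored in alpha granules, SRGN (serglycin) is the proteoglycan core on which such granule proteins are held, and ABCC4 pumps nucleotides. PLEK (pleckstrin) is a main substrate of protein kinase C in platelets, and CD226 is an adhesion receptor. ITGA2B, GP1BA and PF4 are largely restricted to the megakaryocyte lineage, whereas PLEK, CD226, ABCC4, FERMT3, TLN1 and SRGN are also used by other blood cells.

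Some facts of the libraries bear on what follows. DMAG replicate 3 stood apart by adult haemoglobin mRNA: HBB was at 0.0731, 0 and 1367 FPKM in DMAG replicates 1, 2 and 3 and was listed at 0 in the 3 control libraries. The 16 erythroid markers summed to 1953 FPKM in that library, to at most 5.02 in the other DMAG libraries and to between 4.05 and 4.80 FPKM in controls. EPB42, a red cell membrane protein, was listed at 0 in all 6 libraries, and GATA1, the master factor of the erythroid and megakaryocyte lineages, reached at most 0.142 FPKM, in DMAG replicate 3. None of 8 defining megakaryocyte markers, among them ITGA2B, ITGB3, GP1BA, GP9, PF4, PPBP and GP6, averaged 0.5 FPKM. The summed level of the 8 was 1.01 FPKM in DMAG replicate 3, 0.504 to 0.597 FPKM in the other DMAG libraries and 0.291 to 0.521 FPKM in controls. Granulocyte precursor markers were high, 9 of 12 at 0.5 FPKM or more, with sums of 3206 to 3764 FPKM with DMAG and 4024 to 4336 FPKM in controls. They did not move as a set: 3 were called higher with DMAG and 5 lower (limma, adjusted p under 0.05). PRG2 and MPO had the highest means. PRG2, not called, was at 1693 ± 216 FPKM with DMAG and 1564 ± 253 FPKM in controls, and MPO, called lower, at 815 ± 82.9 and 1089 ± 29.1 FPKM. CLC was at 523 ± 12.9 FPKM with DMAG and 320 ± 14.5 FPKM in controls, and PRTN3 at 227 ± 17.3 and 916 ± 61.0 FPKM. CLC and PRTN3 were picked after their values were seen. Of the 16 erythroid markers, 5 averaged 0.5 FPKM, and ALAS2, HBA1, HBA2 and HBB did so through DMAG replicate 3. EPOR was at 4.37, 4.47 and 4.63 FPKM with DMAG and at 3.43, 3.96 and 3.75 FPKM in controls. The factors GATA2 (33.4 ± 2.66 and 19.0 ± 2.14 FPKM) and LMO2 (26.5 ± 3.36 and 19.4 ± 0.777 FPKM) were also well measured with DMAG and in controls. Both were picked after their values were seen, from a list of 17 factors of which 12 averaged 0.5 FPKM. The HEL line is known for erythroid and megakaryocyte features. Most of the erythroid and megakaryocyte markers listed were near 0 outside DMAG replicate 3, whereas EPOR, GATA2 and LMO2 were not. The identity of the cells was not tested.

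The 10 genes split into 6 that were well measured and 4 that were near 0. A mean of 0.5 FPKM over the 6 libraries was the level required for testing, and 10394 genes of the table (52.9%) reached it. CD226 lay nearest above this level and ITGA2B nearest below it. With DMAG the order by level was SRGN, PLEK, TLN1, FERMT3, ABCC4, CD226, ITGA2B, GP1BA, PF4 and ITGB3. In controls PLEK came after TLN1 and FERMT3, and ITGB3 came before PF4. In controls the libraries of TLN1 and FERMT3 overlapped, so their order there lies within the spread. With DMAG all libraries of PLEK lay above those of TLN1, and all of TLN1 above those of FERMT3. Libraries of GP1BA and PF4 overlapped with DMAG.

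**Figure D1:**
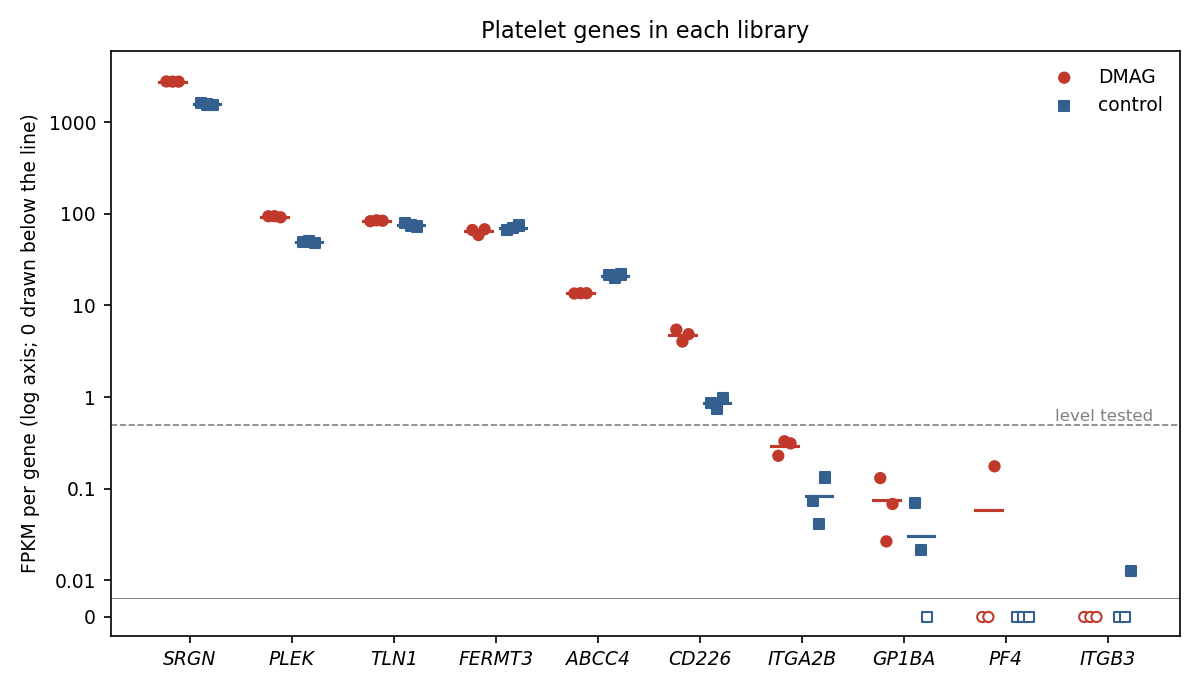
FPKM of each of the 10 genes (log axis, 0 drawn under the solid line) in the 3 DMAG libraries (red circles, left) and the 3 control libraries (blue squares, right), with short bars for the group means that can be drawn on the log axis and a dashed line at 0.5 FPKM. SRGN lies highest, at 1545 FPKM or more in all libraries, the DMAG libraries of PLEK and CD226 lie above and those of ABCC4 below the control libraries, and the 4 genes on the right stay under the dashed line in all libraries.

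When all 10394 genes were fitted, 48.6% were called in either direction, 22.4% higher and 26.1% lower with DMAG. All DMAG libraries lay above all control libraries for 4 of the 6 measured platelet genes (27.9% of the genes tested did so) and below them for 1 (31.6%), which leaves FERMT3 as the gene whose groups overlapped (59.5% of the genes tested had groups apart in either direction). As the genes were chosen with this contrast known, nothing is read from these counts. Rescaling every library to the same mRNA total raised the median difference of the genes tested to 0.08, against -0.01 on the log2 scale as deposited, and changed the calls over all genes to 3435 higher and 1910 lower, against 2333 and 2717.

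SRGN (ENSG00000122862, chromosome 10, 69087603 to 69104811 in GRCh38), the granule proteoglycan, was at 2775, 2764 and 2762 FPKM in DMAG replicates 1 to 3, against 1617, 1555 and 1545 FPKM in control replicates 1 to 3. The DMAG libraries differed little among themselves and all lay above the control libraries. This made SRGN the gene with rank 3 of all 19659 by mean level with DMAG and rank 9 in controls. Its mean was 1.76-fold higher with DMAG, a difference of 0.82 in mean log2(FPKM + 1) with a standard error of 0.045. In such bulk libraries, fewer cells with a transcript and less of it per cell cannot be told apart, which holds for all levels given here.

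PLEK (ENSG00000115956, chromosome 2, 68365282 to 68397453), the protein kinase C substrate, was at 93.9, 94.1 and 91.5 FPKM with DMAG, against 48.8, 50.2 and 47.6 FPKM in controls. All DMAG libraries lay above all control libraries, and the difference in mean log2(FPKM + 1) was 0.92 with a standard error of 0.034 (1.91-fold). Of the genes tested, 3.87% differed by more in size. Pleckstrin rank by mean level was 503 with DMAG and 1285 in controls. The ratio of SRGN to PLEK within a library, which no scaling of libraries can change, was 29.6, 29.4 and 30.2 with DMAG and 33.1, 31.0 and 32.5 in controls, so PLEK differed slightly more than SRGN.

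CD226 (ENSG00000150637, chromosome 18, 69853274 to 69961773), the adhesion receptor, was at 5.45, 4.04 and 4.86 FPKM with DMAG, against 0.861, 0.750 and 0.979 FPKM in controls. It had the largest difference of the 6, 1.63 in mean log2(FPKM + 1) with a standard error of 0.11, and 0.606% of the genes tested differed by more. Its mean was 5.54-fold higher with DMAG, and the difference was 2.34 with a pseudocount of 0.1, because adding 1 understates the change of a gene at this level. Natural killer and T cells also carry CD226, and of 15 lymphoid markers only CD79A and NKG7 averaged 0.5 FPKM. The list summed to 11 FPKM in DMAG replicate 3, to 8.06 to 8.08 FPKM in the other DMAG libraries and to 8.20 to 8.84 FPKM in controls. NCAM1 was listed at 0 in all libraries and CD3E at most at 0.0683 FPKM. GZMB was at 0, 0 and 1.80 FPKM with DMAG and at most at 0.0859 FPKM in controls. PRF1 was at 0.0593, 0 and 0.464 FPKM with DMAG and at 0.153, 0.208 and 0.0207 FPKM in controls. These markers were picked after their values were seen, and the part of such cells in the level of CD226 was not tested.

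ABCC4 (ENSG00000125257, chromosome 13, 95019835 to 95301451), the nucleotide exporter, was the measured gene whose DMAG libraries all lay below the controls. Its levels were 13.5, 13.6 and 13.6 FPKM with DMAG, against 21.3, 19.8 and 21.7 FPKM in controls. The mean was 1.54-fold lower with DMAG, a difference of -0.59 in mean log2(FPKM + 1) with a standard error of 0.046. Within a library ABCC4 was 2.48, 3.35 and 2.81 times the level of CD226 with DMAG, against 24.8, 26.5 and 22.1 times in controls.

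The 2 proteins that switch on the fibrinogen receptor were abundant and differed little. TLN1 (ENSG00000137076, chromosome 9, 35696948 to 35732195) was at 83.0, 84.8 and 83.9 FPKM with DMAG, against 78.9, 74.5 and 72.5 FPKM in controls. Its groups did not overlap, but the difference was 0.16 in mean log2(FPKM + 1) with a standard error of 0.040, and 62.4% of the genes tested differed by more. FERMT3 (ENSG00000149781, chromosome 11, 64205920 to 64223891) was at 66.5, 58.6 and 67.7 FPKM with DMAG, against 66.2, 69.3 and 74.5 FPKM in controls. Its groups overlapped, with a difference of -0.12 and a standard error of 0.071. The ratio of TLN1 to FERMT3 was 1.25, 1.45 and 1.24 with DMAG and 1.19, 1.08 and 0.973 in controls, higher in every DMAG library. Rescaled to the same mRNA total, the differences were 0.26 for TLN1 and -0.02 for FERMT3.

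**Figure D2:**
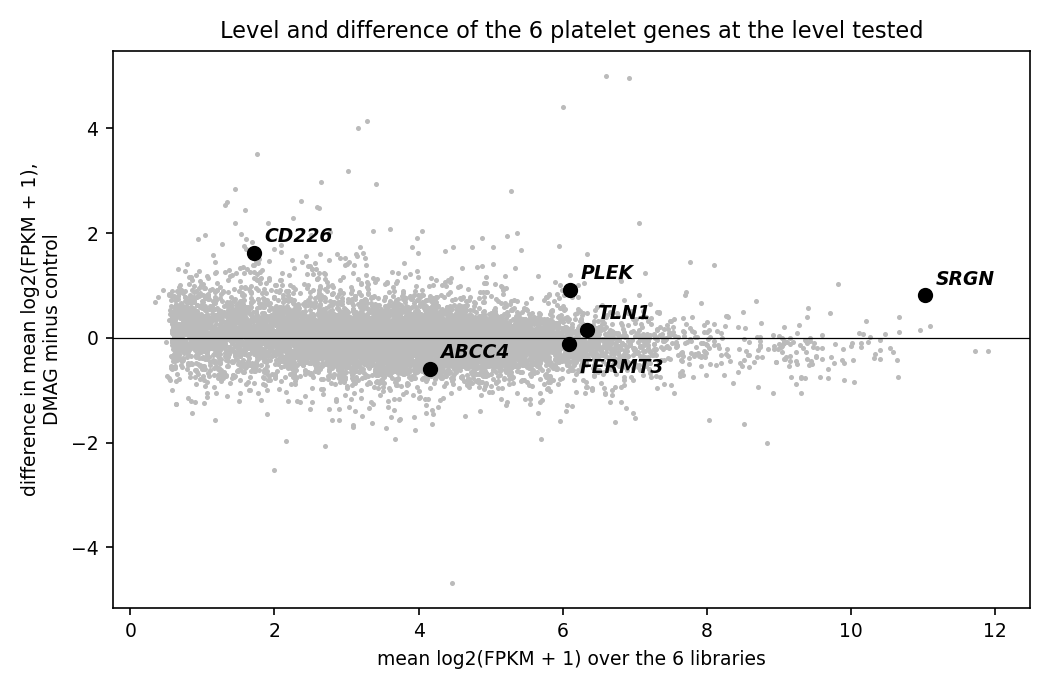
Difference in mean log2(FPKM + 1), DMAG minus control (vertical axis), against the mean log2(FPKM + 1) over the 6 libraries (horizontal axis) for the 10394 genes tested (grey), with the 6 measured platelet genes in black. CD226 (1.63), PLEK (0.92) and SRGN (0.82) lie above most genes, ABCC4 (-0.59) lies low, and TLN1 (0.16) and FERMT3 (-0.12) lie within the cloud.

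The 4 genes near 0 were the 2 chains of the fibrinogen receptor, the von Willebrand factor receptor chain and the alpha granule chemokine. ITGA2B (ENSG00000005961, chromosome 17, 44372181 to 44389649) was at 0.229, 0.330 and 0.313 FPKM with DMAG, against 0.0732, 0.0413 and 0.133 FPKM in controls. The groups did not overlap, at levels that 44.8% of all genes in the table lay below with DMAG and 41.0% in controls. Its partner ITGB3 (ENSG00000259207, chromosome 17, 47253827 to 47313743) was listed at 0 in every DMAG library and at 0, 0 and 0.0126 FPKM in controls. The mRNA of the pair was thus measured for 1 chain at a trace and hardly at all for the other.

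GP1BA (ENSG00000185245, chromosome 17, 4932277 to 4935023) was at 0.131, 0.0267 and 0.0683 FPKM with DMAG, against 0.0700, 0.0216 and 0 FPKM in controls, and the groups overlapped. PF4 (ENSG00000163737, chromosome 4, 73980811 to 73982124) was at 0, 0 and 0.176 FPKM with DMAG and listed at 0 in every control library. The 1 library with PF4 was DMAG replicate 3, the library with high HBB, which also held the only value above 0 of PPBP, the neighbouring platelet chemokine gene (0.0744 FPKM). Without DMAG replicate 3, PF4 was at 0 throughout. The other differences in mean log2(FPKM + 1) were then 0.93 for PLEK, 1.62 for CD226, 0.82 for SRGN, -0.59 for ABCC4, 0.16 for TLN1, -0.16 for FERMT3, 0.24 for ITGA2B, 0.07 for GP1BA and -0.01 for ITGB3.

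Single transcripts showed where the sums per gene came from. PLEK, SRGN, TLN1 and PF4 had 1 transcript each in the table. For CD226, transcript ENST00000280200 was at 1.85, 2.18 and 0 FPKM with DMAG, against 0.608, 0.621 and 0.629 FPKM in controls, where it made up 64.2% to 82.9% of the gene. In DMAG replicates 1 and 3 the main transcript was instead ENST00000582621, with 3.07 and 2.30 FPKM, and it was listed at 0 in the other 4 libraries. ENST00000583955 was above 0 in DMAG replicate 2 alone, at 1.55 FPKM, and ENST00000580335 in DMAG replicate 3 alone, at 0.868 FPKM. The higher sum for CD226 was thus seen in every DMAG library while the transcripts that carried it differed from library to library. For ENST00000280200 alone, the most abundant over the 6 libraries, the difference was 0.36, against 1.63 for the sum.

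FERMT3 and ABCC4 each had 1 leading transcript in every library. For FERMT3, ENST00000345728 was at 43.7, 40.3 and 35.8 FPKM with DMAG, against 50.8, 48.5 and 46.8 FPKM in controls, with no overlap of the groups. ENST00000279227 of FERMT3 was at 11.8, 7.83 and 19.8 FPKM with DMAG and at 6.45, 6.46 and 16.2 FPKM in controls, high in replicate 3 of both groups. For ABCC4, ENST00000376887 held 88.0% to 98.3% of the sum with DMAG and 90.8% to 94.7% in controls. For ITGA2B, ENST00000648408 was at 0.157, 0.286 and 0.302 FPKM with DMAG and listed at 0 in all control libraries. ENST00000262407 of ITGA2B was at 0.0720, 0.0444 and 0.0109 FPKM with DMAG and at 0.0732, 0.0413 and 0.133 FPKM in controls, so the groups differed in the first transcript and overlapped in the second.

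**Figure D3:**
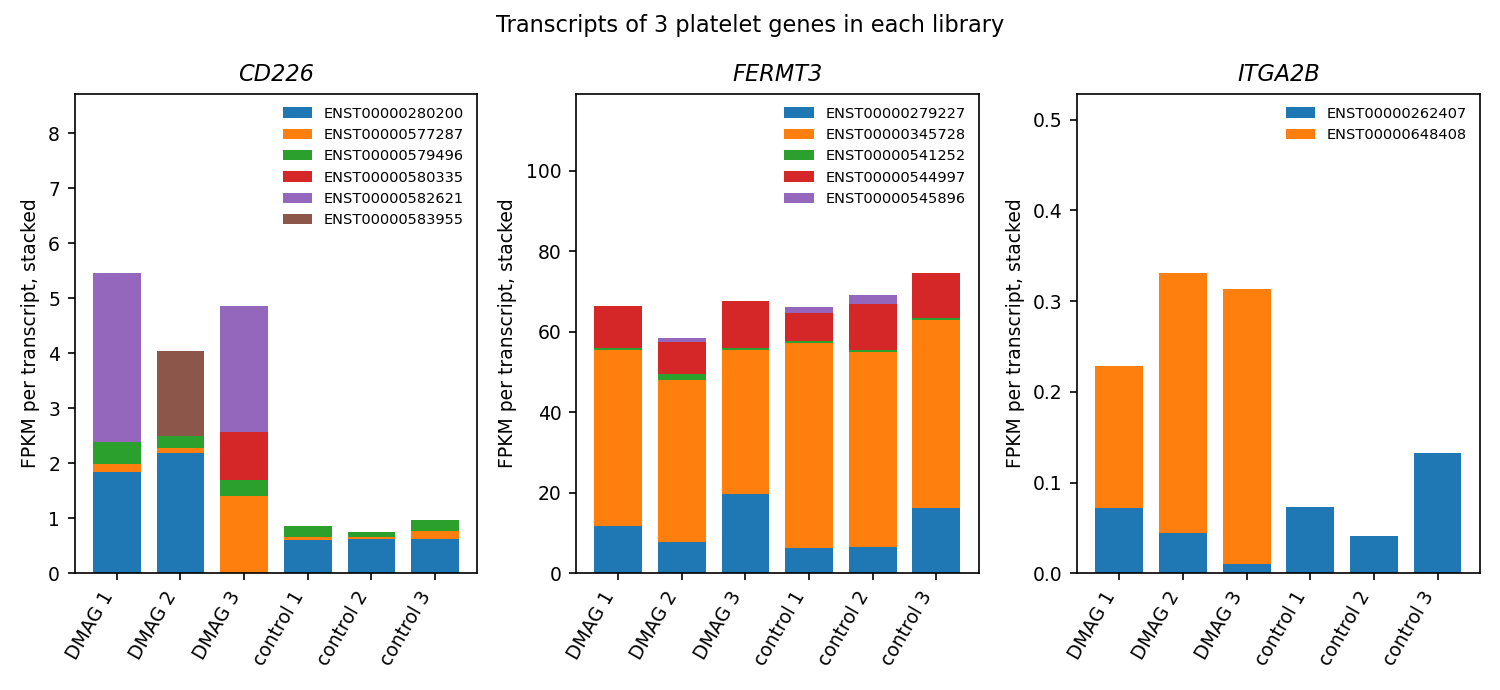
FPKM of the single transcripts of CD226, FERMT3 and ITGA2B (vertical axis, stacked, each panel with its own scale) in DMAG replicates 1 to 3 and control replicates 1 to 3. The DMAG bars of CD226 reach 4.04 to 5.45 FPKM with a different make-up in each library, those of FERMT3 are led by ENST00000345728 in all libraries, and ENST00000648408 of ITGA2B appears in the DMAG bars alone.

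Promoter sequence was at hand in RefSeq (GRCh38.p14) for 6 of the 10 genes, as the 250 bases before an annotated start. Shown are those of PLEK and CD226, which had the largest differences upward, of ABCC4, which was lower with DMAG, and of ITGA2B, which was near 0, read 5′ to 3′ on the strand of the gene. For CD226, 2 starts were listed and the one farther upstream is shown. Capitals mark words of blood transcription factors found on either strand.
PLEK, chr2:68365032-68365281, plus strand: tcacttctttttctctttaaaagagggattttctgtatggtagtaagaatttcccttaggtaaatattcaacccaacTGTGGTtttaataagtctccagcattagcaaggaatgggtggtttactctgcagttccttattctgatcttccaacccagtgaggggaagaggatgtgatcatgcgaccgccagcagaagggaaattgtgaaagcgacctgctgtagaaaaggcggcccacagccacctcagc
CD226, chr18:69956800-69957049, minus strand: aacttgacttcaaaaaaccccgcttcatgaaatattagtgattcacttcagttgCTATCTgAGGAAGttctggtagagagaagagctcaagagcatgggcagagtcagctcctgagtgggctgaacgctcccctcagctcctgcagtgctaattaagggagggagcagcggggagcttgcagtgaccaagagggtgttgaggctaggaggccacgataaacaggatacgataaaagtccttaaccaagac
ABCC4, chr13:95301452-95301701, minus strand: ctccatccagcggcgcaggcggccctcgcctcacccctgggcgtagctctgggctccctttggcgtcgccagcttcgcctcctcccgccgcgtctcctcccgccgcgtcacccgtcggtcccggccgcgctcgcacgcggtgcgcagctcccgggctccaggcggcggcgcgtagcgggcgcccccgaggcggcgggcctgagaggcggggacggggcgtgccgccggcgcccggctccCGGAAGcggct
ITGA2B, chr17:44389650-44389899, minus strand: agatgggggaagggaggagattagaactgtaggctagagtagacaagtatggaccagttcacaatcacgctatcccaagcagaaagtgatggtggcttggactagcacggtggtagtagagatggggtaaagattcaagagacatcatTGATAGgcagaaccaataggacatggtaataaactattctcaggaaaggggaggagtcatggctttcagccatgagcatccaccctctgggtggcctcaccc

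The words searched were AGATAA or TGATAA or AGATAG or TGATAG for GATA factors, CGGAAG or AGGAAG for ETS factors, TGTGGT for RUNX factors, TGAGTCA or TGACTCA for the AP-1 and NF-E2 type, and GGGCGG for SP1, which none of the 4 windows held. Of 35116 promoters of the same length, 22.3%, 40.8%, 11%, 4.2% and 42.6% held a word of these sets, in that order. The PLEK window held TGTGGT 173 to 168 bases before the start. The CD226 window held CTATCT, which is AGATAG on the other strand, at 196 to 191 bases and AGGAAG at 189 to 184 bases before the start. The ABCC4 window held CGGAAG at 11 to 6 bases, and the ITGA2B window TGATAG at 102 to 97 bases. None of the words overlapped another in these windows, and a word is a match of letters, not a bound site. The windows also differed in base composition: ABCC4 held 42 CpG dinucleotides, more than 98.6% of all promoters, whereas PLEK held 4, CD226 held 5 and ITGA2B held 2, against a median of 11.

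The next question was how the other genes of the same functions stood. Lists of 191 genes in 9 groups, the 10 genes left out, were read from the same fit (limma, adjusted over all 10394 genes). The level tested was reached by 124 and missed by 67. In the DMAG libraries 45 of the 124 were called higher (36.3%), 32 lower (25.8%) and 47 not called, beside 22.4% and 26.1% of all genes tested. Rescaled to the same mRNA total, with 11203 genes tested, 56 rose and 22 fell. Of the calls under that scaling, 71.8% of those among listed genes and 64.3% of those among all genes were higher, against 58.4% and 46.2% as deposited, so both moved the same way. Without DMAG replicate 3, 45 listed genes were higher and 28 lower, beside 2029 and 2393 of all genes. The median difference of the 124 was 0.07, against -0.01 for all genes tested, on the log2(FPKM + 1) scale. How many genes reached the level tested varied with function: 26 of 30 for dense granules and secretion, 22 of 26 for signalling and 21 of 26 for integrin activation, but 10 of 31 for surface receptors and 10 of 27 for alpha granules. These shares were not tested against each other.

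Integrin subunits other than those of the fibrinogen receptor include the ones that leukocytes use. ITGB2, the beta chain of leukocyte integrins, rose to 70.5 ± 7.48 FPKM with DMAG, against 40.9 ± 5.83 FPKM in controls (adjusted p = 0.0027, and 0.095 for its most abundant transcript alone). Tests covered 10 of the 12 subunits, with 5 higher, 4 lower and 1 not called, and a median difference of 0.24 against -0.01 for all genes. ITGAX rose 6.33-fold (adjusted p = 0.00014) and ITGAM 2.99-fold (adjusted p = 0.00013), while ITGAL, the alpha chain of LFA-1, fell to 3.65 ± 0.258 FPKM with DMAG, against 11 ± 1.13 FPKM in controls (adjusted p = 0.00012). ITGA5, the fibronectin receptor chain, rose 1.33-fold (adjusted p = 0.00026), and ITGA4 was at 186 ± 2.27 FPKM with DMAG and 177 ± 3.27 FPKM in controls (adjusted p = 0.11). ITGA2 and ITGB5 lay below the level tested, as did ITGB3.

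For integrin activation, 7 of 21 genes tested rose, 7 fell and 7 were not called, with 5 more below the level tested (median difference 0.04). The 4 with the smallest p all rose: FLNA, the actin crosslinker filamin A, to 274 ± 5.70 FPKM with DMAG, against 156 ± 6.70 FPKM in controls (adjusted p = 6.3e-05), RASGRP2, the activator of RAP1 in platelets, 1.60-fold (adjusted p = 0.0001), SYK 1.35-fold (adjusted p = 0.00036) and the adaptor LCP2 1.62-fold (adjusted p = 0.0012). The GTPase RAP1B was at 52.0, 30.4 and 29.4 FPKM with DMAG and at 50.2, 34.6 and 31.2 FPKM in controls (adjusted p = 0.84), high in replicate 1 of both groups. VAV1, an exchange factor, was 1.09-fold higher and did not pass (adjusted p = 0.059), though it passed with either rescaling of the libraries or without control replicate 1 (adjusted p = 0.014 to 0.035). Paralogues of the 2 activators were lower in level: TLN2 was at 3.61 to 3.81 FPKM with DMAG and 3.42 to 3.78 FPKM in controls, while FERMT1 and FERMT2 reached at most 0.0101 and 0.0979 FPKM. These paralogues were picked after their values were seen.

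Of 31 further surface receptors, 21 lay below the level tested, among them GP9, GP5 and P2RY12. GP9, P2RY12 and the prostacyclin receptor PTGIR were listed at 0 in all libraries. These receptors were picked after their values were seen. The 10 tested gave 4 higher, 2 lower and 4 not called (median difference 0.06). CD84 rose 2.31-fold (adjusted p = 0.00028), the Fc receptor FCGR2A 1.98-fold (adjusted p = 0.00021) and the ATP-gated channel P2RX1 1.82-fold (adjusted p = 0.00057). The thromboxane receptor TBXA2R fell to 0.495 ± 0.0775 FPKM with DMAG, against 1.59 ± 0.133 FPKM in controls (adjusted p = 0.00048). The junction protein F11R was at 13.1, 12.5 and 13.2 FPKM with DMAG and at 12.6, 13.1 and 12.2 FPKM in controls, with overlap (adjusted p = 0.60). GP1BB, the chain joined to GP1BA and picked after its values were seen, was at 1.17, 0.872 and 0 FPKM with DMAG and at 0.673, 0.745 and 0.745 FPKM in controls (adjusted p = 0.78). CD47 was at 56.0, 54.6 and 53.7 FPKM with DMAG, against 126, 71.2 and 67.5 FPKM in controls, and passed only without control replicate 1 (adjusted p = 0.0032) or 3 (adjusted p = 0.047), not with all libraries (adjusted p = 0.067).

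Alpha granules hold PF4 on serglycin together with many other proteins. Tests covered 10 of 27 listed genes, with 3 higher, 3 lower and 4 not called (median difference 0.03). PPBP, VWF, THBS1, MMRN1 and F5, all classical cargo, lay below the level tested, at 0.149 FPKM or less in every library, and were picked after their values were seen. The chemokine CCL5 rose 2.23-fold (adjusted p = 0.00038) and TGFB1 1.22-fold (adjusted p = 0.0062). APP fell to 96.7 ± 4.30 FPKM with DMAG, against 137 ± 4.91 FPKM in controls (adjusted p = 0.00039), and VPS33B, needed to build alpha granules, fell 1.29-fold (adjusted p = 0.0032). NBEAL2 and VIPAS39, of the same process, did not pass (adjusted p = 0.90 and 0.55).

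Around ABCC4, the dense granule and secretion list gave 8 higher, 6 lower and 12 not called among 26 genes tested of 30 (median difference 0.05). RAB32, a GTPase of lysosome-related organelles, rose to 111 ± 4.12 FPKM with DMAG, against 53.7 ± 0.837 FPKM in controls (adjusted p = 2.9e-05). RAB27A rose 1.66-fold (adjusted p = 0.00013) and LAMP2 1.43-fold (adjusted p = 0.00021), while the priming factor UNC13D fell 1.47-fold (adjusted p = 0.00032). CD63 and AP3D1 did not pass (adjusted p = 0.24 and 0.10). SLC6A4, which takes serotonin into the platelet, and SLC18A2, which loads it into dense granules, were below the level tested, and were picked after their values were seen.

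Around PLEK, signalling genes gave 8 higher, 5 lower and 9 not called among 22 tested of 26 (median difference 0.0). RGS18, a brake on G proteins in platelets, rose to 46.5 ± 2.00 FPKM with DMAG, against 17.4 ± 0.559 FPKM in controls (adjusted p = 2.4e-05). PRKCB, one of the kinases that phosphorylate pleckstrin, rose 1.69-fold (adjusted p = 6.4e-05), a call lost for its most abundant transcript alone (adjusted p = 0.71). PIK3CG rose 1.48-fold (adjusted p = 0.00079) and BTK fell 1.32-fold (adjusted p = 0.00046), while PRKCD (adjusted p = 0.10) and GNA13 (adjusted p = 0.24) did not pass. PLEK2, the paralogue of pleckstrin, was above 0 in control replicate 1 alone (0.0142 FPKM) and was picked after its values were seen.

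Around CD226, partner genes gave 2 higher, 1 lower and 1 not called among 4 tested of 8 (median difference 0.14). CD96, a receptor that shares a ligand with CD226, rose to 22.5 ± 1.24 FPKM with DMAG, against 14.3 ± 0.863 FPKM in controls (adjusted p = 0.0005). The shared ligand PVR was at 6.13, 9.73 and 6.96 FPKM with DMAG and at 8.27, 8.67 and 13.1 FPKM in controls (adjusted p = 0.22), and the groups overlapped. LFA-1, the integrin with which CD226 associates, differed in opposite directions in its 2 chains, ITGB2 and ITGAL, as given above. Around SRGN, genes that build the sugar chains of proteoglycans gave 4 higher, 2 lower and 5 not called among 11 tested of 16 (median difference 0.0). CSGALNACT2 rose 1.75-fold (adjusted p = 0.00014), CHSY1 to 65.7 ± 1.85 FPKM with DMAG, against 47.4 ± 1.53 FPKM in controls (adjusted p = 0.0003), CHPF2 1.37-fold (adjusted p = 0.00034) and CHST12 1.63-fold (adjusted p = 0.0005). XYLT1 (adjusted p = 0.0086) and B4GALT7 (adjusted p = 0.0087) fell and were named after their values were seen. CHST11 (adjusted p = 0.082) and B3GAT3 (adjusted p = 0.17) did not pass.

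**Figure D4:**
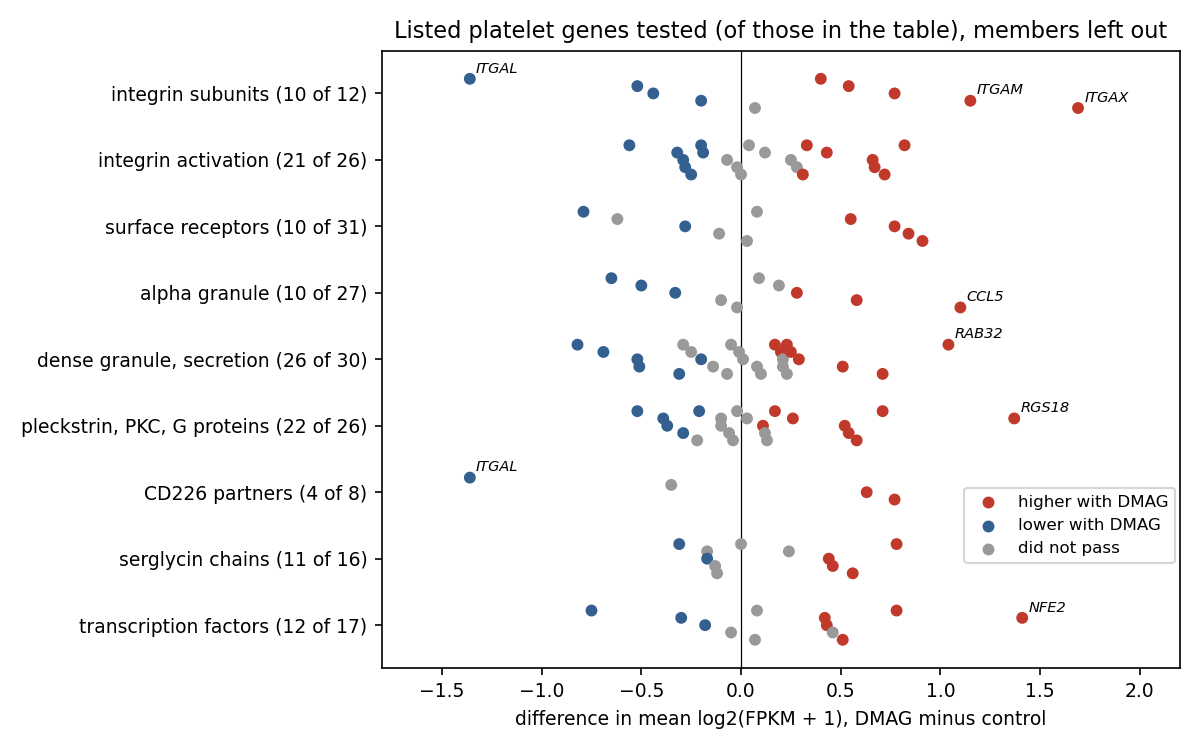
Difference in mean log2(FPKM + 1), DMAG minus control (horizontal axis), for the listed genes other than the 10, by function (rows, with the number tested of those in the table), coloured red where higher, blue where lower and grey where the test was not passed. The lists hold genes not particular to platelets, such as the leukocyte integrin chains ITGAX, ITGAM and ITGAL. Both directions occur in every row, ITGAX (1.69), NFE2 (1.41) and RGS18 (1.37) lie farthest to the right and ITGAL (-1.36) farthest to the left.

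Transcription factors of megakaryocyte maturation gave 5 higher, 3 lower and 4 not called among 12 tested of 17 (median difference 0.25). NFE2 rose 3.06-fold (adjusted p = 0.00014), ETV6 1.35-fold (adjusted p = 0.00031) and FLI1 1.44-fold (adjusted p = 0.00048, and 0.12 for its most abundant transcript alone), while MAFK, a partner of NFE2, fell 1.74-fold (adjusted p = 0.00024). MAFG and MRTFA did not pass (adjusted p = 0.41 and 0.30). GATA1, TAL1, MEIS1, GFI1B and ERG lay below the level tested. The sum of 10 monocyte markers was higher with DMAG, as were PLEK and SRGN. It was 439 to 487 FPKM with DMAG and 170 to 175 FPKM in controls, and LYZ made up most of it. Of the 4 that averaged 0.5 FPKM, LYZ, ITGAM and TLR4 were called higher and none was called lower. FCN1, not called, lay lower with DMAG, at 0.45 ± 0.313 FPKM against 0.811 ± 0.227 FPKM in controls. CD68 and CSF1R, below the level tested, also had lower means with DMAG. ITGAM is one of these markers. CD14 and CSF1R were at most 0.503 FPKM in every library. The part of these markers in the levels of PLEK and SRGN was not tested.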

How the data were processed

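The authors deposited FPKM values per transcript for 3 DMAG and 3 control RNA-Seq libraries. Tools listed without roles in the submitters' processing notes are StringTie 1.3.3, HISAT2 2.0.4 and Bowtie, with GRCh38 as build; the counting rule is not given in the sources used here. Here FPKM were added up for each gene, those averaging 0.5 FPKM or more over the 6 libraries entered a fit on log2(FPKM + 1) with limma 3.58.1 (R 4.3.3, mean trend), Benjamini-Hochberg adjusted, called under 0.05. Steps were tested on simulated data. Read depth is not given. In genes of 1 transcript at low level, the most common ratio to control replicate 1 lay within 0.1 (log2) for each library. The bin of that ratio held only 23 to 32 of 295 to 321 genes per library, so equal depth is not shown. The genes and lists were chosen with earlier results of these data known. Listed genes were named by rule: up to 4 called with the smallest p and 2 uncalled with the highest level per list. Others were marked, save where all genes of a list below the level tested were named. Samples are not stated to be separate cultures, so p-values may cover technical spread alone. The lncRNA, miRNA and circular RNA tables were not used here. Gene positions and promoters come from RefSeq (GRCh38.p14); promoters of SRGN, ITGB3, GP1BA and PF4 were not analysed here.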

Additional observations from a re-analysis of the deposited data

How the results depend on the processing

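Alternatives were pseudocounts of 0.1 and 0.01, no filter, a filter at 1 FPKM, other scalings, the most abundant transcript alone, no mean trend, each library omitted in turn, and the replicate number as a block. No named listed gene changed direction under these where either fit called it. With the most abundant transcript alone, the genes called lower were 1768 of all genes, against 2717, and 20 of the listed genes, against 32. Leaving out 1 library gave 1903 to 2150 higher and 2303 to 2443 lower calls over all genes, and 41 to 46 and 26 to 31 among listed genes. Same-numbered libraries did not deviate together (correlations of -0.005, 0.043 and 0.027), and a replicate block gave 2053 and 2438 calls, with 43 and 30 among listed genes. For the 10 platelet genes, 24 of the 106 values under alternatives that could change a mean difference (filters and the block cannot) moved beyond the spread between replicates. ITGB3 was at 0.01 after median scaling, against -0.01, and no other of the 10 changed sign. The number of these 10 genes whose groups did not overlap was 6 with all libraries, 6 to 8 with 1 library left out and 7 after median scaling of the libraries. With all libraries, 59.5% of the genes tested had groups apart, a share that leaves out genes near 0. Leaving out a library makes a gap easier, and scaling shifts values of 0 apart. Shares over all genes are not given for these settings, so nothing is read from these counts. The 3 calls lost among named listed genes were ITGB2, PRKCB and FLI1, with the most abundant transcript alone. The 14 gained were of AP3D1, CD47, CD63, CHST11, ITGA4, MRTFA, PRKCD and VAV1; the cause was not tested. Values near 0 are limited by depth.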

Other observations

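The genes whose profile over the 6 libraries lay nearest to each measured platelet gene, by the root mean square difference of log2(FPKM + 1) after subtracting the control mean, were found among all genes tested. Nearest to PLEK were LCT (0.029) and CHD5 (0.042), which were at 1.15 ± 0.0895 and 1.58 ± 0.0868 FPKM with DMAG and at 0.155 ± 0.0390 and 0.382 ± 0.0561 FPKM in controls, far below PLEK in level. Their folds of 7.42 and 4.13 are unlike the 1.91 of PLEK, since adding 1 FPKM compresses the change of genes at such levels. Nearest to SRGN were ARHGEF2 (0.020), at 177 ± 1.35 FPKM with DMAG and 99.2 ± 0.852 FPKM in controls, and ARHGEF6 (0.023), at 85.1 ± 2.28 FPKM with DMAG and 48.1 ± 0.787 FPKM in controls. Nearest to CD226 were DHRS9 (0.12) and the glucose transporter SLC2A3 (0.14), which was at 12.4 ± 0.620 FPKM with DMAG and 3.67 ± 0.443 FPKM in controls. No gene lay within 0.1 of CD226, whereas 77 did for PLEK, 116 for SRGN, 338 for ABCC4, 845 for FERMT3 and 1528 for TLN1. Nearest to ABCC4 were HAGHL (0.020) and MAPK12 (0.028), nearest to TLN1 were DPY19L1 (0.016) and UGP2 (0.019), and nearest to FERMT3 were EMC3 (0.035) and BNIP1 (0.039).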
